A study of Mus musculus with 6 samples.

Results

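The transcripts of 10 genes that limit signalling from the T cell receptor were measured in naive mouse CD4+ T cells activated with or without the chemokine CCL19. The 10 were selected by symbol from the 24470 genes of the deposited count table: the diacylglycerol kinases Dgka and Dgkz, the ubiquitin ligases Cbl and Cblb, the tyrosine phosphatases Ptpn6 and Ptpn22, the phosphatase-like protein Ubash3a, the adaptors Sla and Sla2, and the kinase Csk. All 10 were found and all 10 passed the filter on low counts. RNA came from cells of male C57BL/6J mice, purified with magnetic beads from spleen and from lymph nodes that drain the skin, and cultured for 6 h on immobilised antibodies to CD3 and CD28. In 3 samples, labelled CCL19, the medium also held recombinant mouse CCL19, a ligand of the receptor CCR7; the other 3, labelled NoCKN, received the antibodies alone. No unstimulated sample was analysed here, so every value below belongs to cells that had been activated for 6 h. The labels give no mouse ages and do not say whether each replicate is its own animal or culture, so the tests measure only how these samples vary, and that variation may be technical.

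When the T cell receptor is engaged, the kinase LCK phosphorylates the receptor's CD3 chains and then ZAP70, and phospholipase C releases diacylglycerol, the lipid that recruits the Ras activator RASGRP1 and protein kinase C theta. The proteins studied here act against these steps. Diacylglycerol kinases convert the lipid into phosphatidic acid, CSK places the inhibitory phosphate on LCK, PTPN22 and PTPN6 remove activating phosphates, UBASH3A binds CBL, and the CBL ligases, helped by the SLA adaptors, mark receptor chains and their partners for internalisation and degradation. In mice, loss of Cblb, Dgka or Dgkz makes T cells easier to activate.

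The 10 transcripts did not share a direction. With CCL19, Sla, Ptpn22 and Cblb stood higher in all 3 CCL19 libraries than in all 3 NoCKN libraries, by 1.34-fold, 1.24-fold and 1.14-fold on the group means. Dgka, Dgkz and Ubash3a stood lower in all 3, at 0.783, 0.886 and 0.918 of the NoCKN mean. The groups overlapped for Cbl, Ptpn6, Sla2 and Csk. Groups that did not overlap were also common in the whole table: 15.3% of the 11666 tested genes stood higher in all 3 CCL19 libraries and 14.5% lower in all 3, 29.8% in either direction, against 6 of the 10 members. The signs were split evenly, with 5 members above 0 (49.8% of tested genes) and 5 below (50.2%).

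How many members counted as changed depended on the test. The edgeR quasi-likelihood test, adjusted over all tested genes by Benjamini-Hochberg, called 0 of the 10 at an adjusted p under 0.05, and it called 0% of all tested genes in either direction. At an unadjusted p under 0.05 it held 6 members, Sla, Ptpn22 and Cblb higher and Dgka, Dgkz and Sla2 lower, against 14.5% of tested genes higher, 13% lower and 27.5% in either direction. An adjusted p under 0.1 held Sla and Ptpn22 higher and Dgka lower, against 7.62% and 6.91% of tested genes. limma voom also called 0 members, and it called 0% of all tested genes in either direction. DESeq2 called 2 members higher, Sla and Ptpn22, and 1 lower, Dgka; it called 6.55% of the 9613 genes to which it gave an adjusted p higher and 5.6% lower. The authors' deposited table of changed genes lists the same 3 members in the same directions, and its 1168 genes are the 1168 that DESeq2 called here, so both are a single result and not separate support. The lowest edgeR adjusted p in the table was 0.0505, shared by 361 genes, of which Sla was one.

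The promoters below are those of the members whose groups did not overlap and that have an entry in RefSeq's promoter table (GRCm38.p6, the assembly also called mm10); 9 of the 10 members matched and Sla did not. Each sequence runs 5′ to 3′ on the gene's own strand from 250 bases before to 50 bases after the annotated start nearest to the start in the deposited coordinates. RefSeq's promoter table holds 4 entries for Dgka and 2 each for Dgkz, Ptpn22 and Csk. Only the nearest entry was searched, so other promoters of these genes are not described. Capitals mark matches, on either strand, to any of 12 short motifs: the GC box (GGGCGG), the CCAAT box by its own letters, the TATA box (TATAAA), the sites known for AP-1 (TGANTCA), for ETS proteins (CCGGAAG) and for E-box proteins (CACGTG), the core bound by NFAT (GGAAAA), the sites known for KLF proteins (CCACCC), for FOXO (TGTTTAC), for the cyclic AMP response (CRE, TGACGTCA) and for EGR proteins (GCGGGGGCG), and the NF-kB consensus.
Dgka (chr10:128744027-128744326, minus strand): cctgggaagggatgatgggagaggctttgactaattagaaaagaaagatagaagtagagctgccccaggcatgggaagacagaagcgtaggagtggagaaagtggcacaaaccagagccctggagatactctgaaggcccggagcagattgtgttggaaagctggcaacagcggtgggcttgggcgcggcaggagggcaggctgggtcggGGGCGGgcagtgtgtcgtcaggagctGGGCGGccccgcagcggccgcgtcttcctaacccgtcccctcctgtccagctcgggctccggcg
Dgkz (chr2:91963514-91963813, minus strand): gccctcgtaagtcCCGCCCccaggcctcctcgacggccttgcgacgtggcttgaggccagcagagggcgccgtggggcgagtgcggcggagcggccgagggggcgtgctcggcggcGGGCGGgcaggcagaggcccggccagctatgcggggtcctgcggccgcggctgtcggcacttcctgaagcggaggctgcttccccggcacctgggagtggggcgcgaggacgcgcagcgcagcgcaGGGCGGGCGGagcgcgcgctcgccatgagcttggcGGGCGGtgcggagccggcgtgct
Ubash3a (chr17:31207816-31208115, plus strand): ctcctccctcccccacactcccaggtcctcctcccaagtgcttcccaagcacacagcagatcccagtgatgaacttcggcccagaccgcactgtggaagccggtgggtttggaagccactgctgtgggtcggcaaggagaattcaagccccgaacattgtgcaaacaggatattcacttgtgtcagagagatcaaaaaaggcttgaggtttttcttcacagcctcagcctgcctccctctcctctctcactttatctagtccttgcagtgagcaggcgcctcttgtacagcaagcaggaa
Cblb (chr16:52031299-52031598, plus strand): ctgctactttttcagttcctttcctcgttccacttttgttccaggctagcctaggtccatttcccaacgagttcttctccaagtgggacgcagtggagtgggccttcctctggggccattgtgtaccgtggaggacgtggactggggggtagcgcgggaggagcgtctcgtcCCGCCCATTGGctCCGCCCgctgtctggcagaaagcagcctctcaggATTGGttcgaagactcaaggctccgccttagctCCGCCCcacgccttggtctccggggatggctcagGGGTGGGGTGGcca
Ptpn22 (chr3:103859545-103859844, plus strand): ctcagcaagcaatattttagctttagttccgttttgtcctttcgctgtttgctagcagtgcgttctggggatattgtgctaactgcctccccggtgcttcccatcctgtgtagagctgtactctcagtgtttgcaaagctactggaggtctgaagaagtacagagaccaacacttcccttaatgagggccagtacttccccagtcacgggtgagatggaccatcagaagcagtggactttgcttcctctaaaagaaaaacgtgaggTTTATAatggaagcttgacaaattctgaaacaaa

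These windows are unlike each other in base composition. The Dgkz window held 77.7% G and C with 43 CpG pairs, those of Dgka and Cblb 62.3% and 61.3% with 17 CpG pairs each, Ubash3a 54.7% with 6 and Ptpn22 46% with 6, against a median of 52.7% over 32851 RefSeq promoter windows of 300 bases. The GC box, the binding motif of SP and KLF proteins, was found in the windows of Dgka, Dgkz and Cblb, and also in those of Cbl and Ptpn6, which makes 5 of 9 searched members against 35.7% of all windows. It was therefore present in both kinases that stood lower and in the ligase that stood higher. Cblb also held CCAAT, in common with 37.4% of all windows, and CCACCC, in common with 31.5%, and these matches share no base with its GC boxes; its pair of CCACCC matches, on the reverse strand, overlap by a base. The only match in the Ptpn22 window was TATAAA on the reverse strand, 17 to 22 bases downstream of the start, a motif held by 13.6% of windows. None of the 12 motifs was found in the Ubash3a window. None of the 9 windows held the AP-1, ETS, E-box, NF-kB, FOXO or CRE letters, which 7.81%, 8.86%, 7.15%, 8.46%, 3.65% and 1.79% of all windows hold.

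The 6 libraries held between 16978736 and 27429898 counts, and each member had between 524 and 40832 counts per library. The smallest count, 524 for Sla2 in CCL19 replicate 1, has an exact 95% Poisson interval of 480.1 to 570.8, which covers counting error only. The spread between replicates was 0.0205 to 0.25 on the log2 scale (SD of 3 libraries per group). Levels below are CPM, read counts scaled to a common library size by edgeR's TMM factors. The pair of libraries with the smallest difference crossed the groups, CCL19 replicate 3 and NoCKN replicate 3, at a chi-square of 5.36 per degree of freedom, so no library was a copy of another. The leading principal component (41.8% of the variance) separated the groups, with scores of 25.4, 11.45 and 1.69 for CCL19 replicates 1, 2 and 3 and of -24.7, -7.27 and -6.61 for the NoCKN replicates.

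The cell type matched its label. Summed CPM of 10 CD4 T cell markers lay between 4578 and 5137 in CCL19 libraries and 4905 and 5453 in NoCKN libraries. Markers of B cells (7 genes) summed to 24.01 to 27.35 CPM in CCL19 and 25.17 to 31.05 in NoCKN libraries, and those of myeloid cells (9 genes) to 11.9 to 18.8 in CCL19 and 13.1 to 22.5 in NoCKN libraries. NK cell markers (6) summed to 26.9 to 30.8 in CCL19 and 29.8 to 33.6 in NoCKN libraries, and CD8 T cell markers (4) to 23.4 to 26.1 in CCL19 and 22.1 to 24.7 in NoCKN libraries. Those of dendritic cells (6) summed to 3.06 to 4.21 in CCL19 and 3.79 to 4.67 in NoCKN libraries, and those of red cells and platelets (7, with Ppbp at 0 in every library) to 13.4 to 14.98 in CCL19 and 10.3 to 15.7 in NoCKN libraries. The regulatory T cell list (4) summed to 375.8 to 476.3 in CCL19 and 255.7 to 330.4 CPM in NoCKN libraries. Of its genes, Il2ra, which activation also induces, stood at 336 to 441 CPM in CCL19 and 216 to 289.8 CPM in NoCKN libraries (log2 fold change 0.55, edgeR adjusted p = 0.0505), while the defining gene Foxp3 stood at 9.93 to 10.9 in CCL19 and 9.97 to 10.8 CPM in NoCKN libraries. Ctla4 stood at 9.87 to 12.8 in CCL19 and 11.3 to 15.7 CPM in NoCKN libraries (-0.18), and Ikzf2 at 13 to 16 in CCL19 and 13.5 to 17 CPM in NoCKN libraries (-0.02). Ptpn6, Ptpn22 and Sla, among others, are also expressed by B or myeloid cells; the part of those cells in the values below was not tested. In bulk RNA, fewer cells of one kind and less RNA per cell cannot be told apart.

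**Figure D1:**
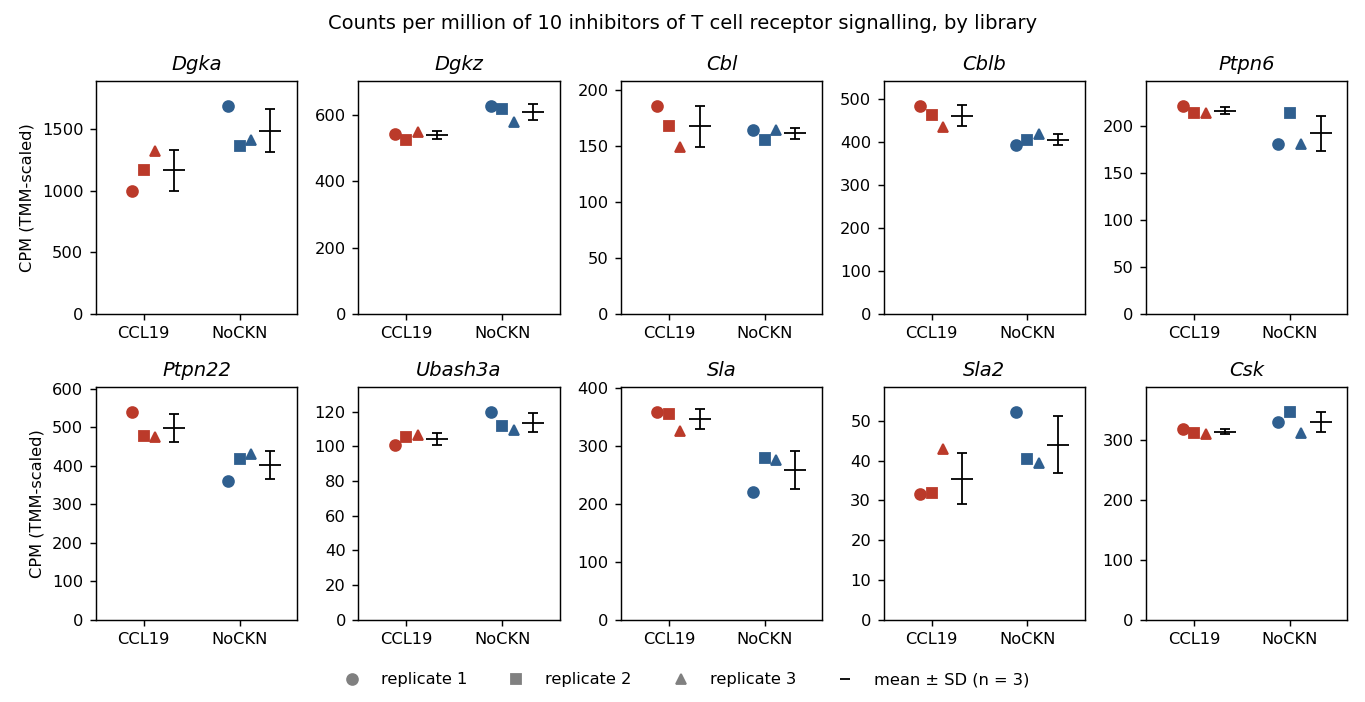
CPM (vertical axes, each from 0) of the 10 members in each CCL19 library (red) and each NoCKN library (blue), with the mean and SD of 3 libraries in black. For Dgka, Dgkz, Ubash3a, Cblb, Ptpn22 and Sla the 3 symbols of one group lie wholly above those of the other.

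Of the diacylglycerol kinases, Dgka (NCBI Gene 13139, chromosome 10, 128720134 to 128744056, minus strand, mm10) encodes the alpha isoform, which is activated by calcium. It stood at 998, 1168 and 1326 CPM in CCL19 replicates 1, 2 and 3, against 1688, 1359 and 1414 CPM in NoCKN replicates 1, 2 and 3. Every CCL19 library lay below every NoCKN library, with the narrowest gap between CCL19 replicate 3 and NoCKN replicate 2. The mean was 1164 ± 164 CPM with CCL19 and 1487 ± 176 CPM without it (SD, n = 3 each), a log2 fold change of -0.35 ± 0.11 (SE; 95% interval -0.59 to -0.12; edgeR adjusted p = 0.0735, DESeq2 adjusted p = 0.0166). Leaving out any of 3 single libraries ended the DESeq2 call: its adjusted p was 0.142 without CCL19 replicate 1 (log2 fold change -0.26), 0.0961 without CCL19 replicate 2 (-0.355) and 0.129 without NoCKN replicate 1 (-0.25). Without CCL19 replicate 3 the change was -0.46 and edgeR too called it (adjusted p = 0.019).

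Dgkz (NCBI Gene 104418, chromosome 2, 91932822 to 91963563, minus strand) encodes the zeta isoform, regarded as the main brake on Ras activation downstream of the receptor. CCL19 libraries held 545, 525 and 550.1 CPM and NoCKN libraries 628, 619 and 581 CPM. Again the groups did not overlap, and the replicates lay closer together than for Dgka. Its log2 fold change was -0.17 ± 0.08 (SE; edgeR adjusted p = 0.162, DESeq2 adjusted p = 0.0736), from means of 540.0 ± 13.1 CPM with CCL19 and 610 ± 25 CPM without it (SD, n = 3 each). It was -0.03 with a correction for length and GC content, and Dgkz transcripts hold 59.6% G and C. Such a correction also takes out any effect of CCL19 that runs with GC content or length. Dgka, at 51.5%, had -0.33 under the same correction. The ratio of Dgka to Dgkz counts within a library was 1.83, 2.22 and 2.41 with CCL19 and 2.69, 2.19 and 2.43 without it, so this ratio overlapped between the groups.

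The other DGK genes were counted together with genes of RASGRP exchange factors, protein kinases C and D and a phospholipase C. This list held 21 genes, of which 18 were tested, Dgka and Dgkz among them. Of the 18, 3 had a log2 fold change above 0, against 49.8% of all tested genes, and the list's median was -0.14 against 0.00 over all tested genes. Without Dgka and Dgkz, 3 of 16 lay above 0 and the median was -0.09. This list and the 4 below were chosen with earlier results of these data known. Their counts are therefore descriptions and not separate support. edgeR called 0 of the 18 in either direction, with 0 higher and 6 lower at an unadjusted p under 0.05. DESeq2 called 3 lower, namely Dgka, Rasgrp2 and Prkd2, and 0 higher of the 15 to which it gave an adjusted p. Over the whole table the shares were 14.5% higher and 13% lower at an unadjusted p under 0.05, and 6.55% higher and 5.6% lower in DESeq2. Rasgrp2, an exchange factor for the small GTPase RAP1, averaged 116 ± 16.7 CPM in CCL19 and 168 ± 29.3 CPM in NoCKN libraries (log2 fold change -0.54, edgeR adjusted p = 0.0505, DESeq2 adjusted p = 0.00246). Prkd2, a protein kinase D that diacylglycerol recruits, averaged 293 ± 29 CPM in CCL19 and 360.2 ± 36.4 CPM in NoCKN libraries (-0.30, edgeR adjusted p = 0.0759, DESeq2 adjusted p = 0.0231), but with the correction for length and GC content it was -0.19 and DESeq2 did not call it (adjusted p = 0.145). Dgkq, the theta isoform, averaged 57.7 ± 1.17 CPM in CCL19 and 67.7 ± 3.03 CPM in NoCKN libraries (-0.23, edgeR adjusted p = 0.0747, DESeq2 adjusted p = 0.0553; SD, n = 3 each, here and in the other lists).

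Among the ubiquitin ligases, Cblb (NCBI Gene 208650, chromosome 16, 52031549 to 52208047, plus strand) sets the requirement for CD28 costimulation. Its level was 484, 463 and 435 CPM in the CCL19 libraries, against 392, 404 and 418 CPM in the NoCKN libraries. All 3 CCL19 values were the higher ones, with CCL19 replicate 3 and NoCKN replicate 3 nearest to each other. Their means were 461 ± 24.5 CPM with CCL19 and 405 ± 12.8 CPM without it (SD, n = 3 each). The fitted log2 fold change was 0.19 ± 0.08 (SE; 95% interval 0.02 to 0.35; edgeR adjusted p = 0.142, DESeq2 adjusted p = 0.0738), and neither tool called it; without CCL19 replicate 3 it was 0.23 in DESeq2, which then called it (adjusted p = 0.0312). Cbl (NCBI Gene 12402, chromosome 9, 44149262 to 44234046, minus strand), its closest relative and the ligase with which SLA works, stood at 186, 168 and 149.7 CPM with CCL19 and 164, 155.8 and 164 CPM without it. Here the CCL19 libraries spanned the NoCKN range, with replicate 1 above it and replicate 3 below it. The log2 fold change of Cbl was 0.06 ± 0.08 (SE; 95% interval -0.12 to 0.23; edgeR adjusted p = 0.698), and without CCL19 replicate 1 it was -0.03. Within a library, the count ratio of Cblb to Cbl, which uses neither a scaling factor nor gene length, was 2.6, 2.76 and 2.91 with CCL19 and 2.39, 2.596 and 2.54 without it. These ratios did not overlap, although CCL19 replicate 1 and NoCKN replicate 2 differed only in the third decimal.

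The wider list of E3 ligases and their partners held 18 tested genes of 19. Of these, 10 lay above 0, against 49.8% of all tested genes, and the median log2 fold change was 0.06. edgeR called 0 of them, with 4 higher and 0 lower at an unadjusted p under 0.05, against 14.5% and 13% of all tested genes. DESeq2 called 1 higher and 0 lower of 16, against 6.55% and 5.6% over the whole table. That 1 was Cish, a cytokine-induced SOCS family protein that also binds phospholipase C gamma in T cells, at 97.3 ± 12.4 CPM with CCL19 and 74.3 ± 15.7 CPM without it (0.39, edgeR adjusted p = 0.0875, DESeq2 adjusted p = 0.0432); its groups overlapped. Without NoCKN replicate 1 Cish was at 0.22 and not called (DESeq2 adjusted p = 0.23). Ndfip1, which activates the ligase ITCH, averaged 292 ± 12.3 CPM in CCL19 and 254 ± 13.9 CPM in NoCKN libraries (0.20, edgeR adjusted p = 0.119), and Traf6, a ligase whose loss in T cells of mice causes inflammation, averaged 131 ± 8.27 CPM in CCL19 and 114.8 ± 4.69 CPM in NoCKN libraries (0.19, edgeR adjusted p = 0.116).

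The phosphatases Ptpn22 and Ptpn6 both stood higher on the means. Ptpn22 (NCBI Gene 19260, chromosome 3, 103859795 to 103912252, plus strand) encodes the phosphatase that binds CSK and dephosphorylates LCK and ZAP70. Its level was 539, 477 and 475 CPM in CCL19 libraries, against 359.9, 416 and 429 CPM in NoCKN libraries. The groups did not overlap, and the widest departures were CCL19 replicate 1 upwards and NoCKN replicate 1 downwards. Means were 497 ± 36.2 CPM in CCL19 and 402 ± 36.9 CPM in NoCKN libraries (SD, n = 3 each), with a log2 fold change of 0.31 ± 0.09 (SE; 95% interval 0.11 to 0.50; edgeR adjusted p = 0.064, DESeq2 adjusted p = 0.015). The DESeq2 call was lost without CCL19 replicate 1 (0.24, adjusted p = 0.135), without CCL19 replicate 2 (0.34, adjusted p = 0.0723) and without NoCKN replicate 1 (0.23, adjusted p = 0.0952), while edgeR called it without CCL19 replicate 3 (0.33, adjusted p = 0.0398).

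Ptpn6 (NCBI Gene 15170, chromosome 6, 124720707 to 124738709, minus strand), whose product is recruited to inhibitory receptors, stood at 221, 214 and 214 CPM with CCL19 and 181, 214 and 180.3 CPM without it. NoCKN replicate 2 lay level with CCL19 replicates 2 and 3, and the other NoCKN libraries lay below. This gave a log2 fold change of 0.17 ± 0.08 (SE; 95% interval -0.00054 to 0.35; edgeR adjusted p = 0.183, DESeq2 adjusted p = 0.16); without NoCKN replicate 2 it was 0.26 in DESeq2, which then called it (adjusted p = 0.0331). With the correction for length and GC content it was 0.25 (edgeR adjusted p = 0.0944, DESeq2 adjusted p = 0.0351). An antisense transcript, Gm20531, overlaps 195 exon bases of Ptpn6 (6.96%), and the sources used here do not state whether counting used strand.

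Ubash3a (NCBI Gene 328795, chromosome 17, 31208066 to 31242403, plus strand) encodes a lymphocyte protein with a very weak phosphatase activity. It stood at 100.5, 105.6 and 106.8 CPM with CCL19 and 119.7, 112 and 109 CPM without it. The 3 CCL19 values were the lower ones, with CCL19 replicate 3 and NoCKN replicate 3 close together. The log2 fold change of -0.12 ± 0.07 (SE; 95% interval -0.27 to 0.03; edgeR adjusted p = 0.279, DESeq2 adjusted p = 0.308) passed in no test. Its paralog Ubash3b, whose phosphatase acts on ZAP70, stood the other way, at 407, 354 and 302 CPM with CCL19 and 248, 301 and 270.0 CPM without it (0.38 ± 0.11, edgeR adjusted p = 0.0606, DESeq2 adjusted p = 0.0122). For Ubash3b, CCL19 replicate 3 (302 CPM) and NoCKN replicate 2 (301 CPM) were almost level. The count ratio of Ubash3b to Ubash3a was 4.045, 3.35 and 2.83 in CCL19 libraries and 2.07, 2.69 and 2.47 in NoCKN libraries. These ratios could not overlap, since every CCL19 library held more Ubash3b and less Ubash3a than every NoCKN library.

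The phosphatase list counted 19 tested genes of 20, Ptpn6, Ptpn22 and Ubash3a included. Of these, 13 had a log2 fold change above 0 and the median was 0.15. edgeR called 0, with 5 higher and 1 lower at an unadjusted p under 0.05; DESeq2 called 3 higher (Ptpn22, Ubash3b and Ptprc) and 1 lower (Ptpn18) of 19. The same shares of all tested genes were 49.8% above 0, 14.5% higher and 13% lower at an unadjusted p under 0.05, and 6.55% higher and 5.6% lower in DESeq2. Ptprc, which encodes CD45, the phosphatase that keeps LCK active and so works in favour of the receptor, averaged 2554 ± 122 CPM in CCL19 and 2174 ± 174 CPM in NoCKN libraries (0.23, edgeR adjusted p = 0.11, DESeq2 adjusted p = 0.0416), but with the correction for length and GC content it was 0.14 and not called (DESeq2 adjusted p = 0.175). Ptpn18, of the same PEST-type group as Ptpn22, averaged 102.7 ± 12.2 CPM in CCL19 and 132 ± 19 CPM in NoCKN libraries (-0.36, edgeR adjusted p = 0.0668, DESeq2 adjusted p = 0.0218), and its groups overlapped.

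The adaptors Sla and Sla2, each with an SH3 and an SH2 domain, differed in direction. Sla (NCBI Gene 20491, chromosome 15, 66780819 to 66831829, minus strand) stood at 358, 355 and 326 CPM in CCL19 libraries, against 221, 279 and 276 CPM in NoCKN libraries. All 3 CCL19 libraries lay above all 3 NoCKN libraries, and NoCKN replicate 1 lay well below the other two. Its means were 346 ± 17.7 CPM in CCL19 and 259 ± 32.8 CPM in NoCKN libraries (SD, n = 3 each). The log2 fold change of 0.42 ± 0.09 (SE; 95% interval 0.22 to 0.62; edgeR adjusted p = 0.0505, DESeq2 adjusted p = 0.00254) exceeded that of 96.3% of tested genes and had the smallest p of the 10 members. Leaving out each library in turn gave 0.32 to 0.47; DESeq2 kept its call in 5 of the 6 omissions and gave an adjusted p of 0.05065 without CCL19 replicate 2, and edgeR called the gene without CCL19 replicate 3 (adjusted p = 0.0186) or NoCKN replicate 3 (0.0472). Sla lies inside the locus of Tg, the thyroglobulin gene on the opposite strand, which had 26 to 35 counts in CCL19 and 32 to 37 in NoCKN libraries and shares 0 exon bases with it.

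Sla2 (NCBI Gene 77799, chromosome 2, 156872922 to 156887078, minus strand) stood at 31.5, 32 and 42.9 CPM with CCL19 and 52.2, 40.5 and 39.3 CPM without it. CCL19 replicates 1 and 2 lay below all NoCKN libraries, whereas CCL19 replicate 3 lay above NoCKN replicates 2 and 3. The log2 fold change was -0.31 ± 0.13 (SE; 95% interval -0.59 to -0.03; edgeR adjusted p = 0.14, DESeq2 adjusted p = 0.11). It was -0.17 without NoCKN replicate 1 and -0.48 without CCL19 replicate 3, where edgeR (adjusted p = 0.0211) and DESeq2 (adjusted p = 0.00814) both called it. Counts of Sla2 are uncertain, because 731 of its 3099 exon bases (23.6%) overlap exons of Rab5if on the opposite strand; Rab5if itself stood at 64.3, 55.65 and 56.4 CPM with CCL19 and 55.4, 56.7 and 54.5 CPM without it (log2 fold change 0.08 ± 0.08, edgeR adjusted p = 0.545). The count ratio of Sla to Sla2 was 11.35, 11.1 and 7.595 in CCL19 libraries and 4.23, 6.9 and 7.02 in NoCKN libraries, and these did not overlap.

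Csk (NCBI Gene 12988, chromosome 9, 57626646 to 57653631, minus strand), the kinase that restrains LCK, had the smallest difference but for Cbl. CCL19 libraries held 319, 313 and 310.1 CPM and NoCKN libraries 330.2, 347 and 313 CPM. The lowest NoCKN library lay among the CCL19 values. Its log2 fold change was -0.07 ± 0.08 (SE; 95% interval -0.23 to 0.09; edgeR adjusted p = 0.567), and its sign turned to 0.07 with the correction for length and GC content, Csk transcripts holding 60.1% G and C. Set against Csk, its binding partner Ptpn22 had a count ratio of 1.69, 1.53 and 1.53 with CCL19 and 1.09, 1.2 and 1.37 without it, which did not overlap. The ratio of Ptpn22 to Ptpn6 did overlap, at 2.44, 2.233 and 2.226 with CCL19 and 1.99, 1.947 and 2.382 without it. How often ratios of other gene pairs fail to overlap was not counted.

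A list of 23 genes held inhibitory adaptors and kinases, together with some surface receptors and other adaptors. Of these, 22 were tested, Sla, Sla2 and Csk among them, and 9 had a log2 fold change above 0, with a median of -0.08. edgeR called 0, with 3 higher and 5 lower at an unadjusted p under 0.05, and DESeq2 called 2 higher (Sla and Stap1) and 2 lower (Dok2 and Sit1) of 20; the shares of all tested genes are those given for the phosphatases. Stap1, an SH2 domain adaptor, averaged 60.1 ± 2.96 CPM in CCL19 and 48.5 ± 3.77 CPM in NoCKN libraries (0.31, edgeR adjusted p = 0.055, DESeq2 adjusted p = 0.0231). Dok2, an adaptor that recruits the Ras inhibitor RasGAP, averaged 40.4 ± 2.05 CPM in CCL19 and 51 ± 4.79 CPM in NoCKN libraries (-0.33, edgeR adjusted p = 0.0542, DESeq2 adjusted p = 0.0187). Sit1, a transmembrane adaptor that binds SHP phosphatases, averaged 12.3 ± 3 CPM in CCL19 and 17.6 ± 2.28 CPM in NoCKN libraries (-0.52, edgeR adjusted p = 0.0666, DESeq2 adjusted p = 0.0264), and its groups overlapped. The correction for length and GC content ended all 3 of these calls: Stap1 was at 0.19 (DESeq2 adjusted p = 0.203), Dok2 at -0.22 (0.0752) and Sit1 at -0.42 (0.0624).

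The proteins on which these inhibitors act were counted too. Of 20 proximal signalling genes, all tested, 8 lay above 0, against 49.8% of all tested genes. The median log2 fold change was -0.03. edgeR called 0, with 1 higher and 5 lower at an unadjusted p under 0.05, against 14.5% and 13% of all tested genes. DESeq2 called Lcp2 higher and Pik3cd and Grap2 lower, against 6.55% higher and 5.6% lower over the whole table. Lcp2, a scaffold that ZAP70 phosphorylates, averaged 838 ± 74.5 CPM in CCL19 and 684 ± 46 CPM in NoCKN libraries (0.29, edgeR adjusted p = 0.07, DESeq2 adjusted p = 0.0159). Pik3cd, the catalytic phosphoinositide 3-kinase subunit of lymphocytes, averaged 527 ± 46.6 CPM in CCL19 and 662 ± 47.4 CPM in NoCKN libraries (-0.33, edgeR adjusted p = 0.057, DESeq2 adjusted p = 0.00644), and Grap2, an adaptor that joins LAT to the Lcp2 product, averaged 394 ± 41.7 CPM in CCL19 and 477 ± 57 CPM in NoCKN libraries (-0.28, edgeR adjusted p = 0.104, DESeq2 adjusted p = 0.0457). With the correction Lcp2 stayed called (0.27, DESeq2 adjusted p = 0.0405), whereas Pik3cd was at -0.22 (0.0852) and Grap2 at -0.25 (0.0854), and Grap2 was at -0.18 without NoCKN replicate 1. Over all 5 lists without the 10 members, 87 genes were tested, and edgeR and limma voom each called 0 in either direction. At an unadjusted p under 0.05 edgeR held 10 higher and 14 lower, against 14.5% and 13% of all tested genes. DESeq2 called 5 higher and 7 lower of 80, against 6.55% and 5.6% of all genes to which it gave an adjusted p. Of these 12 DESeq2 calls, only that of Rasgrp2 held without CCL19 replicate 1, CCL19 replicate 2 or NoCKN replicate 1; the other 11 were called in none of these omissions, with adjusted p of 0.0605 to 0.245 where DESeq2 gave one. All 12 held without CCL19 replicate 3, 8 without NoCKN replicate 2, 11 without NoCKN replicate 3 and 5 with the correction for length and GC content.

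**Figure D2:**
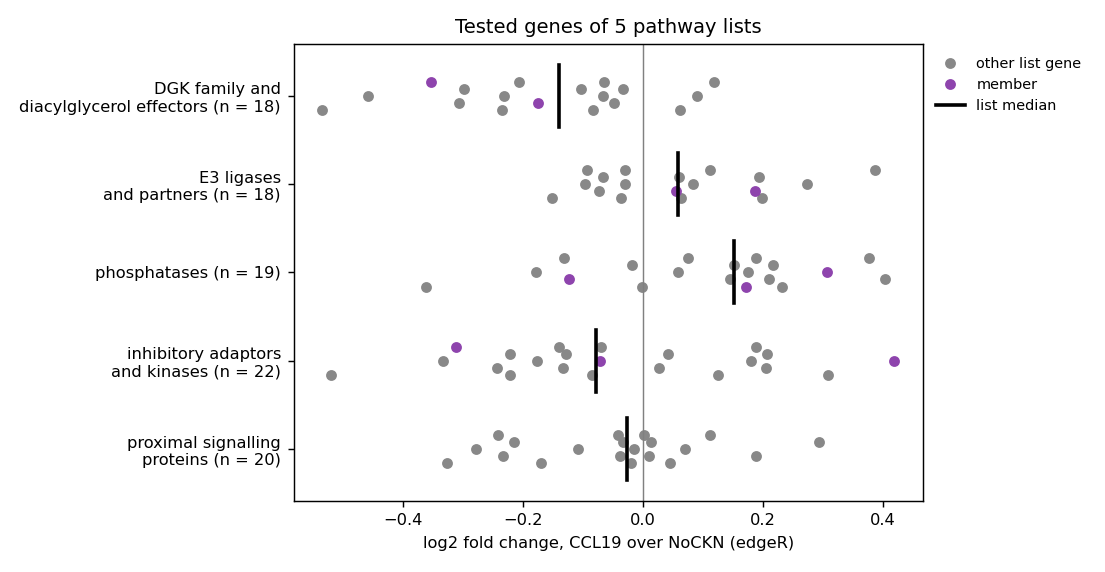
Log2 fold change of CCL19 over NoCKN from edgeR (horizontal axis) for every tested gene of the 5 lists (1 dot per gene, members in purple), with the list median as a black bar. The medians run from -0.14 for the diacylglycerol list to 0.15 for the phosphatase list.

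**Figure D3:**
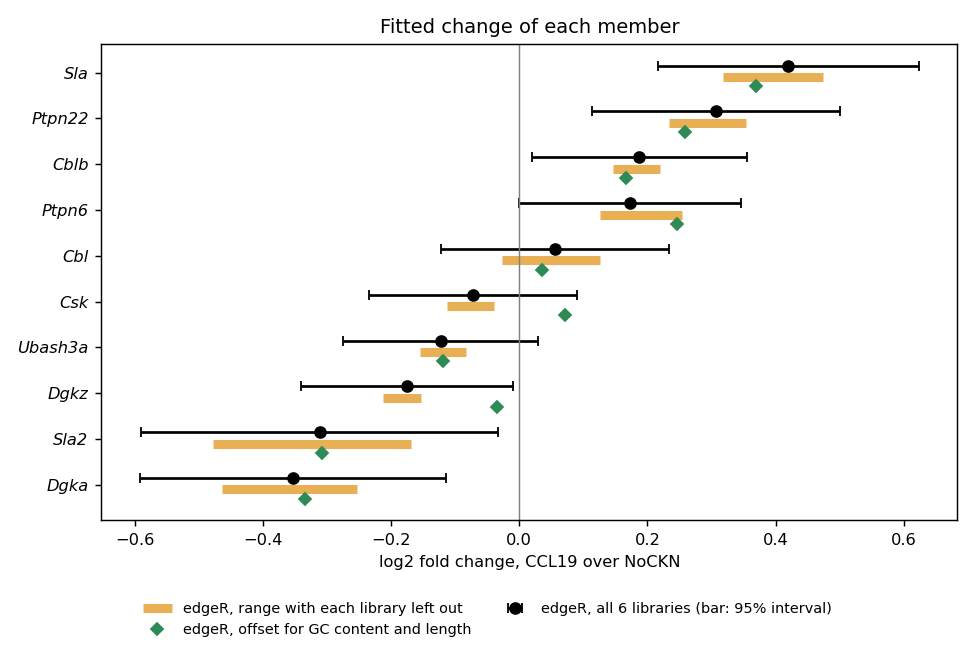
Fitted log2 fold change of CCL19 over NoCKN (horizontal axis) for the 10 members with its 95% interval (black), the range with each library left out in turn (orange) and the value with a correction for length and GC content (green). Sla is highest at 0.42 and Dgka lowest at -0.35, and the green value of Csk lies on the other side of 0.

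Individual libraries weighed on these differences in a recurring way. CCL19 replicate 1 was the highest or the lowest of the 6 libraries for 8 of the 10 members, and NoCKN replicate 1 for 7 of the 10. The same held for the table as a whole, where CCL19 replicate 1 was at one end in 53.8% of tested genes and NoCKN replicate 1 in 54.1%, against 21% to 26.6% for each of the other 4. Relative to the mean of the 6 libraries on the log2 scale, CCL19 replicate 3 deviated by 0.02 for Dgka, 0.01 for Cblb and 0.13 for Sla2, which put it nearer to the NoCKN libraries than CCL19 replicate 1 was, at -0.39, 0.16 and -0.31. For Sla it stayed clear of the NoCKN libraries, at 0.13 against -0.43, -0.09 and -0.11 in NoCKN replicates 1, 2 and 3.

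**Figure D4:**
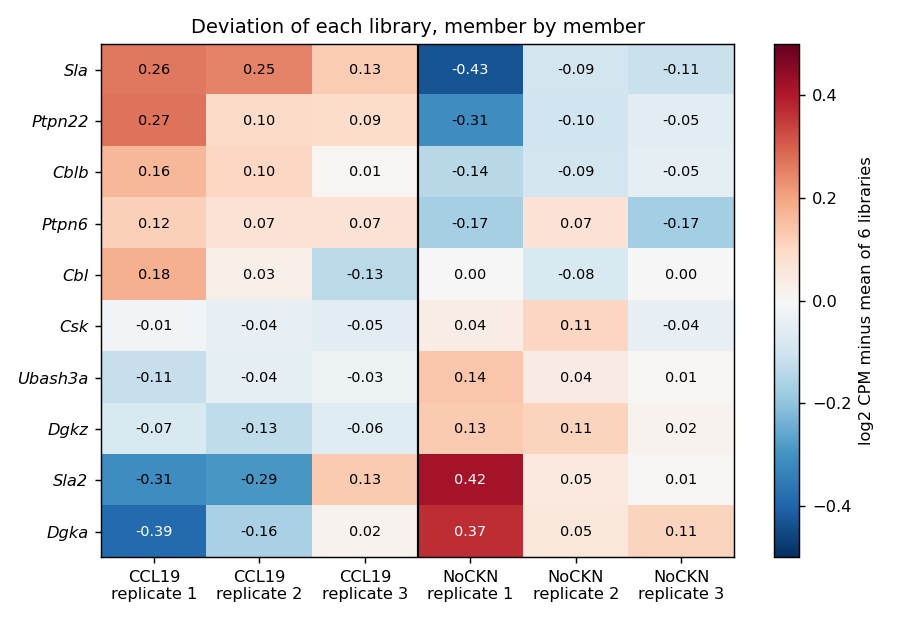
Log2 CPM of each member in each library minus its mean over the 6 libraries (colour and printed value; CCL19 libraries left of the line, NoCKN libraries right). The strongest colours are mostly in replicate 1 of each group, for example -0.39 in CCL19 replicate 1 and 0.37 in NoCKN replicate 1 for Dgka.

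Base composition ran with the differences over the whole table. Over 11598 genes, GC content and log2 fold change had a Spearman's rho of -0.312, given as a description, since all genes come from the same 6 libraries. Dgkz and Csk lay in the highest of 10 classes of GC content, whose median log2 fold change was -0.145. Ptpn22 (44.8%) and Sla (43.9%) lay in a class with a median of 0.06, well under their own values of 0.31 and 0.42. With the correction for length and GC content, Sla had 0.37, Ptpn22 0.26, Cblb 0.17, Sla2 -0.31 and Dgka -0.33. An effect of CCL19 that runs with GC content and a technical one cannot be told apart in these 6 libraries. A value that shrinks under the correction therefore does not show which it was.

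The members covered a wide range of levels. Levels per length, in CPM per kilobase of exon (GENCODE M21) over the 6 libraries, put Dgka first at 278 (range 209.6 to 354), above 99.1% of tested genes. Dgkz at 91.7 (83.8 to 100.2) and Csk at 86.1 (83 to 92.8) came next and overlapped each other. Ptpn6 at 72.7 (64.3 to 78.8) and Ptpn22 at 66.3 (53.1 to 79.5) overlapped as well, as did Cblb at 41.3 (37.4 to 46.2) and Sla at 32.9 (24 to 39). Cbl at 13.3 (12.1 to 15.1), Sla2 at 12.8 (10.2 to 16.8) and Ubash3a at 9.69 (8.95 to 10.7) formed the low end, where each overlapped its neighbour. The ranges of Dgka and Dgkz, of Csk and Ptpn6, of Ptpn22 and Cblb, and of Sla and Cbl were separate. The order depends on the length used: over the longest annotated transcript Ptpn22 stood at 163, second to Dgka.

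**Figure D5:**
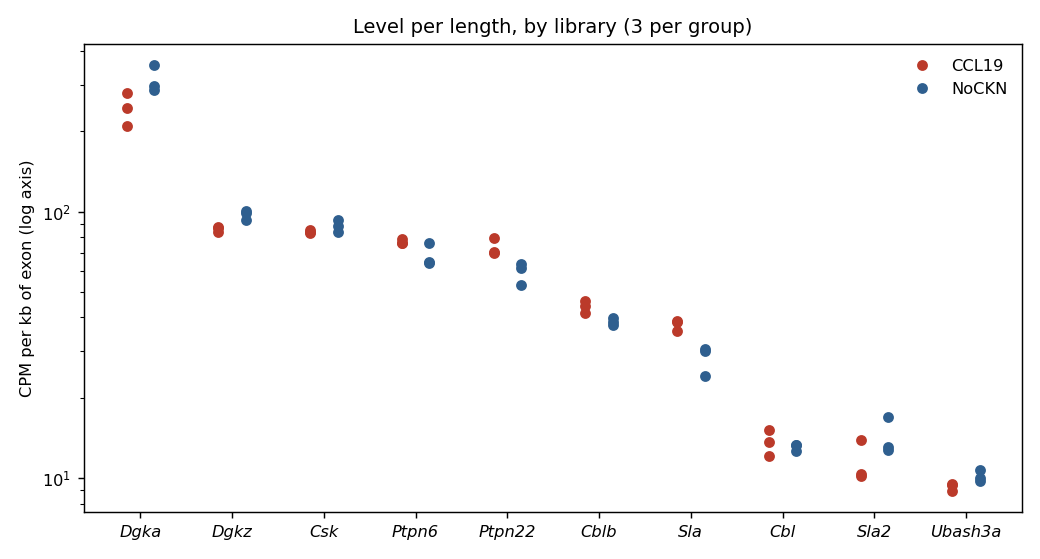
Level of each member per kilobase of exon (vertical log axis, CPM per kb) in the 3 CCL19 (red) and 3 NoCKN (blue) libraries, ordered by the mean of all 6. Dgka stands apart at 209.6 to 354, and Cbl, Sla2 and Ubash3a lie between 8.95 and 16.8.

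Other transcripts followed a pattern close to that of Sla, the member with the smallest p. Among 11129 tested genes with a regular name, the 3 nearest by root-mean-square distance of centred log2 CPM over the 6 libraries were Gnl3, which encodes the nucleolar GTPase nucleostemin (0.0288), Ppa1, an inorganic pyrophosphatase (0.0298), and Naa25, a subunit of an N-terminal acetyltransferase (0.0319), against a median distance of 0.278. Their log2 fold changes were 0.41, 0.44 and 0.45, beside 0.42 for Sla. The 3 genes were chosen by this distance, so their small distances and similar fold changes follow from the choice.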

How the data were processed

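RNA-seq counts of 6 libraries were used, 3 CCL19 and 3 NoCKN, grouped by sample title. The authors deposited integer read counts for each gene, not normalized, and a table naming the genes they called, with up or down. STAR 2.5, featureCounts 1.5.0-p1 of Subread and DESeq2 1.28.1 are named, with mm10, per the submitters' processing notes; strand setting, treatment of reads with several matches, annotation release and that table's threshold are not stated there. Libraries were made with a TruSeq RNA kit, per the labels.

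Members and lists were chosen with earlier results of these data known. Genes passing filterByExpr (11666) were tested with edgeR 4.0.16 (quasi-likelihood, TMM, Benjamini-Hochberg over all tested genes, threshold 0.05) in R 4.3.3. DESeq2 1.42.0 (independent filtering at 0.1) and limma 3.58.1 voom were alternatives. Log2 CPM used a prior count of 2. GC content and lengths came from GENCODE M21, for 99.4% of tested genes, with natural splines of 5 degrees of freedom. Beside members, the text names the 3 genes of smallest edgeR p that are not members in each of 5 lists, since edgeR called none, and the 3 nearest to the member of smallest p. Foxp3, Il2ra, Ctla4, Ikzf2, Ppbp, Tg, Rab5if and Gm20531 were named after their values or annotation were seen. A marker gene of the B cell list is not reported here and is not in its sum. Tests were tried on simulated counts first. Figures used matplotlib 3.10.9.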

Additional observations from a re-analysis of the deposited data

How the results depend on the processing

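Over 25 alternatives for each member, the sign turned for Cbl without CCL19 replicate 1 (-0.0273 in edgeR and -0.0262 in DESeq2, in a range up to 0.125 with other libraries left out in edgeR) and for Csk with the correction for length and GC content (0.0706 in edgeR, 0.0706 in DESeq2, 0.0705 with the replicate block added), and for no other member; the cause was not tested. edgeR as used in the report called 0 genes, and also called 0 with DESeq2 size factors, a minimum of 1 CPM in at least 3 libraries, a threshold of 0.01, the replicate block, the correction for length and GC content, or both together, as did limma voom.

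Counts differed under other settings, given here as genes higher and lower, then members, then other list genes. The genes given an adjusted p differ between settings and stand beside the counts, with all 10 members among them in each. DESeq2 called 630 and 538 of 9613 genes, 2 and 1 members, 5 and 7 of 80 list genes. edgeR with no filter on low counts called 803 and 797 of 15905, 2 and 2, and 4 and 7 of 91. A robust prior gave 267 and 262 of 11666, 1 and 0, and 1 and 2 of 87. A threshold of 0.1 gave 889 and 806 of 11666, 2 and 1, and 4 and 7 of 87. DESeq2 with the correction for length and GC content gave 626 and 323 of 9404, 3 and 1, and 5 and 3 of 80. DESeq2 with the replicate block gave 103 and 75 of 6018, 1 and 0, and 0 and 1 of 64.

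With each library left out in turn, edgeR called 0 to 772 genes higher and 0 to 827 lower, 0 to 2 members in each direction, and 0 to 5 list genes higher and 0 to 8 lower. Its calls came without CCL19 replicate 3 (772 higher and 827 lower of 11871) or NoCKN replicate 3 (235 and 278 of 11872). For DESeq2, genes higher and lower are given with the number of genes that had an adjusted p, which differed widely. It called 20 and 35 of 5967 without CCL19 replicate 1, 56 and 67 of 8013 without replicate 2, and 905 and 799 of 9836 without replicate 3. It called 60 and 45 of 3287 without NoCKN replicate 1, 604 and 406 of 8607 without replicate 2, and 709 and 549 of 9522 without replicate 3. Of the members it called 0 to 3 higher and 0 to 2 lower, of 9 without NoCKN replicate 1 and of 10 otherwise. Of the 53 to 81 list genes with an adjusted p, DESeq2 called 0 to 9 higher. It called 9, 5 and 6 lower without CCL19 replicate 3, NoCKN replicate 2 and NoCKN replicate 3, against 1 lower in each other omission.

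The labels do not say that replicate numbers pair the samples, so the numbers were not treated as pairs. Deviations of same-numbered libraries from their group means correlated at -0.164, 0.0814 and -0.0207. Those of differently numbered libraries correlated at -0.214 to 0.217. With 3 libraries a group, these values cannot decide whether the samples were paired. With 3 samples a group, member differences of the size of Cbl or Csk could not be told from 0, and their intervals are given above.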

Other observations

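The 10 genes together took 0.37% to 0.395% of all counts in CCL19 libraries and 0.395% to 0.42% in NoCKN libraries. Dgka alone accounted for the largest number of counts among them in every library, so it weighs most in this share. Dgka averaged 1164 CPM with CCL19 and 1487 CPM without it, while 5 of the 10 members had a log2 fold change above 0. The lower share is therefore no joint fall of the 10 genes. Of single tested genes, 29.8% had groups that did not overlap.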
